A study of Mus musculus with 36 samples.

Results

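The potassium, sodium and chloride channels of the mouse diaphragm, the main breathing muscle, were followed in control and mdx mice from 7 to 112 days of age. The members are all probe sets whose single gene symbol begins with Kcn, with Scn and a digit, or with Clcn, which gave 72 of the 12422 probe sets and 54 of 8251 genes with a single symbol. Expression had been measured in total RNA on 1-colour Affymetrix arrays at 7, 14, 23, 28, 56 and 112 days in both genotypes, with 3 arrays for each of the 12 groups. The mdx mouse carries a mutation of Dmd, the gene of dystrophin, a protein that anchors the muscle fibre membrane, in all its cells, while the other group is labelled control. The sources used here do not give strain, sex, pooling of animals or the region of the muscle. Arrays of a group are numbered in the labels, with no word on whether each is a different animal, and p-values therefore reflect array-to-array spread that may be technical.

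A muscle fibre fires when sodium channels open, and it returns to rest through potassium and chloride currents. In skeletal muscle most of the resting conductance is carried by the chloride channel encoded by Clcn1, and loss of that channel leaves fibres overexcitable, which is known as myotonia. Potassium channels fall into voltage-gated channels (Kcna to Kcns, with the accessory Kcnab and Kcne subunits), inward rectifiers (Kcnj), 2-pore channels that set the resting potential (Kcnk) and channels opened by calcium (Kcnn, Kcnma). Several Clcn genes encode chloride and proton exchangers of endosomes and lysosomes and not channels of the surface membrane.

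Most of these channels gave dim signals in diaphragm. The mean signal over the 36 arrays lay above the 40th percentile of all values, an intensity of 374, for 29 of the 72 channel probe sets (40.3%), against 7665 of all 12422 (61.7%). At least 3 arrays above that level were required for a test, and 42 channel probe sets (58.3%) of 34 genes met this, against 9291 of all probe sets (74.8%). Above that intensity on every array were 14 channel probe sets, 25 were above it on none and 5 on 1 or 2 arrays (Kcna1, Kcnab1, Kcnu1, Scn8a and 1 of the Kcnq1 probe sets). Just inside the limit were Kcnab2 102892_at and Kcne1, each above it on 4 arrays. Tested were 12 of 13 chloride, 15 of 27 voltage-gated potassium, 8 of 15 inward rectifier, 3 of 4 calcium-activated, 4 of 5 two-pore and none of the 8 sodium channel probe sets.

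**Figure D1:**
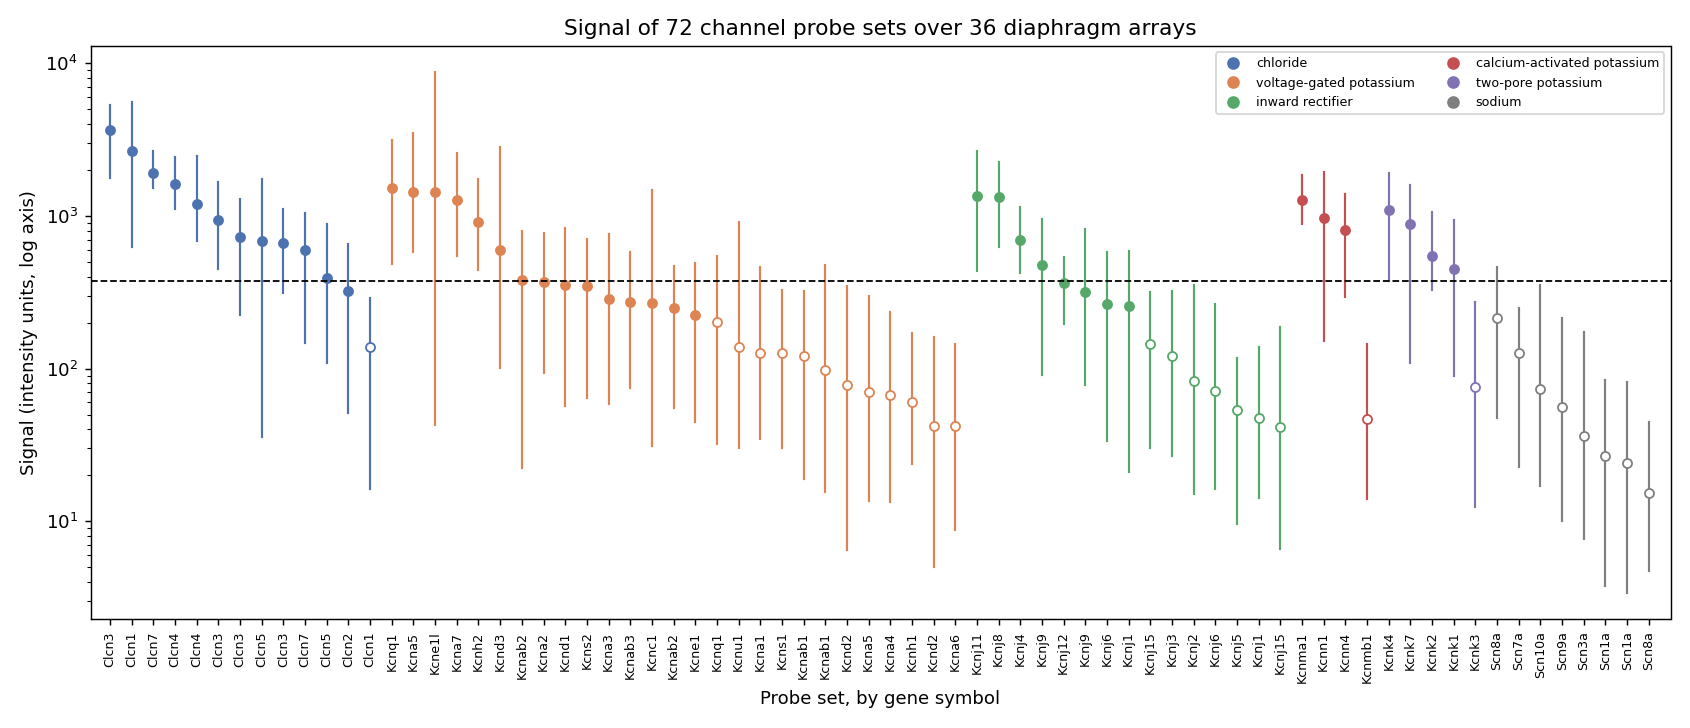
Each horizontal position is 1 of the 72 channel probe sets, and the vertical log axis is the signal in intensity units over the 36 arrays. The mean is a point (filled where tested), the lowest to highest array a bar and the 40th percentile of all values a dashed line. The sodium channel probe sets sit with their means below the line, and the chloride probe sets reach a mean of 3667.

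The arrays themselves differed in ways that bear on the results. Dmd, the mutated gene, read 745 ± 290 (SD, n = 3) in controls and 380 ± 146 (SD, n = 3) in mdx at 112 days, and over the 6 ages its log2 difference was -1.01 ± 0.122 (SE, adjusted p = 2.22e-07). Array medians lay between 451 and 723, and the 23-day arrays, between 451 and 515, lay below all others. The 14-day arrays, between 663 and 688, lay within the range of other ages. Albumin, a liver product, read above 10000 on 9 arrays, among them 3 at 112 days (control replicates 2 and 3, mdx replicate 2). Where these 9 are left out below, 1 control array is left at 14 and at 112 days, and that lone array is assumed to vary like the other groups. The Gapdh control ratio (3′ probe set over 5′ probe set) ran from 0.0357 to 0.971. All 36 values were below 1, while target primed from the 3′ end usually gives more 3′ than 5′ signal, so the ratio is given as a difference between arrays and not read as RNA integrity. At 7 days it was 0.0357 to 0.147 in controls, against 0.32 to 0.83 in mdx, without overlap. Of 15 skeletal muscle marker genes, 12 were above the 40th percentile on every array. Macrophage markers (10 genes) summed to 18280 to 19471 in controls, against 67801 to 74011 in mdx at 112 days, and fibroblast markers (7 genes) to 61351 to 74074, against 128832 to 155826. The part of these shifts in the channel results was not tested, and in whole tissue fewer cells of a type and less RNA per cell cannot be told apart.

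Values were compared as log2(signal + 32), which understates the change of dim genes, and a difference is called a rise or a fall where its adjusted p is under 0.05 over all 9291 probe sets tested. The direction of every difference is mdx minus control. At 7 days 0 of the 42 channel probe sets rose and 0 fell in the limma fit (0.0538% and 0.409% of all probe sets, 0.463% together), and 4 had an unadjusted p under 0.05. At 14 days 0 rose and 0 fell (0.161% and 0.0323% of all, 0.194% together), and 2 had an unadjusted p under 0.05. At 23 days 0 rose and 2 fell (4.76%, against 2.68% and 0.807% of all, 3.49% together). At 28 days 0 rose and 3 fell (7.14%, against 2.42% and 0.538% of all, 2.96% together).

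More channel probe sets were called in the older mice. At 56 days 3 rose and 3 fell (14.3%, against 9.27% and 7.38% of all, 16.7% together). At 112 days 1 rose and 4 fell (11.9%, against 7.65% and 4.52% of all, 12.2% together). Over the mean of the 6 ages 4 rose and 6 fell (23.8%, against 10.4% and 7.41% of all, 17.8% together), and the difference depended on age for 4 (9.52%, against 8.93% of all). Kcnab3, among the rises at 56 days and over the mean, and Kcnab2, among those over the mean, passed the limit for testing through mdx arrays alone. Their entry into these counts was thus tied to the group in which they are higher. The mdx and control arrays did not overlap for 7, 4, 9, 6, 18 and 9 of the 42 from 7 to 112 days. These are 16.7%, 9.52%, 21.4%, 14.3%, 42.9% and 21.4%, beside 15.4%, 12.9%, 22.9%, 21.5%, 36.9% and 23.5% of all tested probe sets. Most of these shares lie near those of all probe sets, and they are no result about the channels as a group. The median log2 difference over the 42 was 0.10, -0.01, -0.04, -0.23, 0.28 and -0.17 from 7 to 112 days, beside 0.04, 0.00, -0.01, -0.04, 0.15 and 0.02 over all tested probe sets.

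In all, 13 probe sets of 11 channel genes were called in at least 1 of these comparisons. Centring each array on its median moved the median of all tested probe sets at 56 days from 0.15 to -0.10, and the share of all calls that were rises from 55.7% to 22.4%. The channel calls at 56 days then became 2 rises and 6 falls. Over the mean of the ages the same centring moved the share of rises from 58.5% to 35.8%, and the channel calls became 3 rises and 8 falls. Without the 14-day and 23-day arrays the mean of Kcnab2 102892_at (0.52, adjusted p = 0.0746), Kcnab3 (0.52, adjusted p = 0.147) and Kcnn4 (0.36, adjusted p = 0.109) was no longer called. Without the arrays of high albumin, which leaves 1 control and 2 mdx arrays at 112 days, 1 of the 5 calls at that age was left, that of Clcn1. Kcna5 (-0.63, adjusted p = 0.194), Kcna7 (-0.94, adjusted p = 0.0779), Kcnn1 (-1.75, adjusted p = 0.235) and Clcn5 101913_at (1.94, adjusted p = 0.0512) kept their direction there. None of the 13 probe sets changed direction where it was called under any alternative tried. The other 29 tested probe sets had log2 differences between -1.23 and 1.39 at single ages and between -0.33 and 0.62 over the mean of the ages, where the lowest adjusted p was 0.061.

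**Figure D2:**
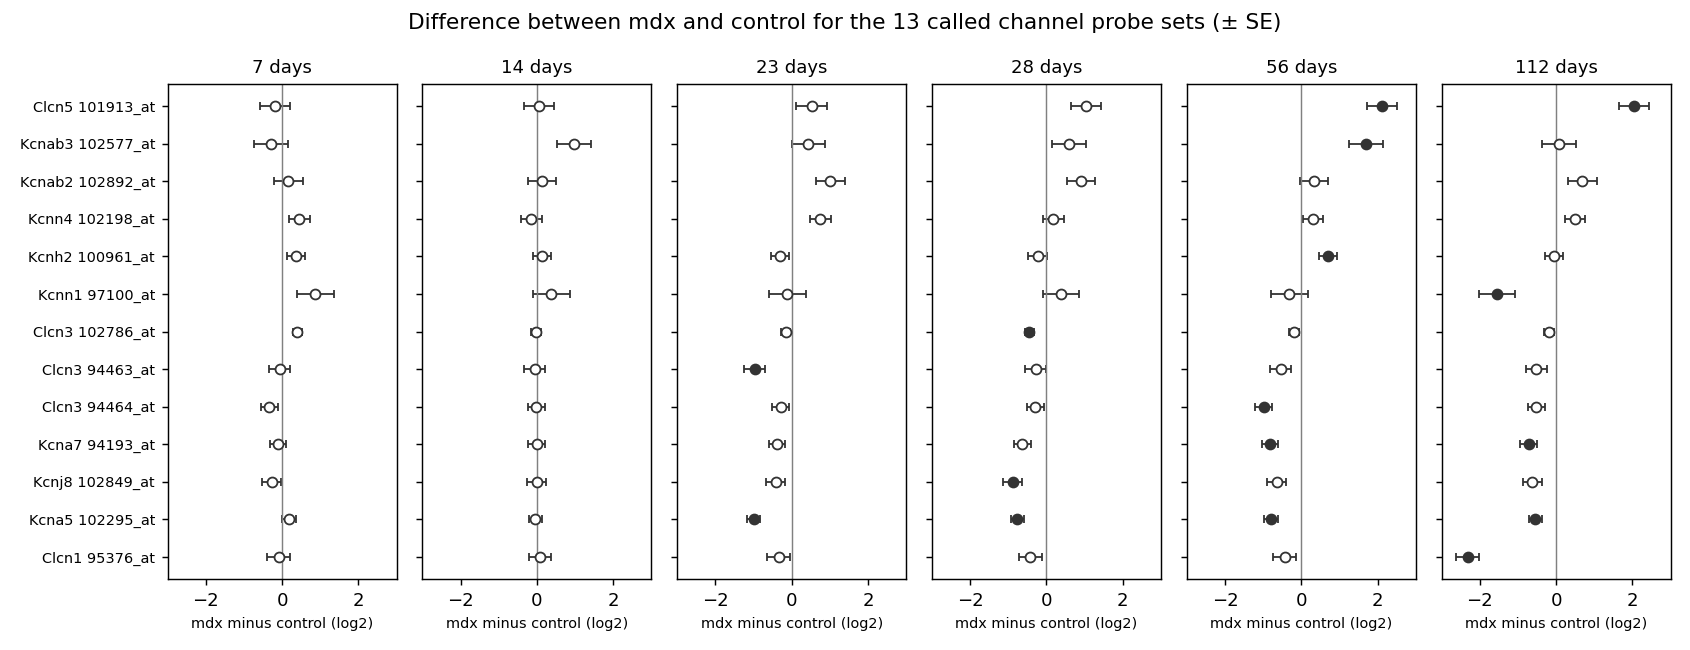
The horizontal axis of each panel is the log2 difference between mdx and control at 1 age, with its standard error, for the 13 called channel probe sets listed down the side. Filled points passed the adjusted threshold at that age, and Clcn1 at 112 days lies at -2.31 and Clcn5 101913_at at 2.11 and 2.05 at 56 and 112 days.

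Clcn1, the chloride channel of the fibre surface, was lower in mdx diaphragm at 112 days. These values are from 95376_at, since the other Clcn1 probe set, 102622_r_at, was below the 40th percentile on every array (at most 291) and was not tested. It read 219, 37.4 and 121 in controls, against 211, 198 and 177 in mdx at 112 days, and so did not show the gap. On 95376_at the 112-day control arrays read 5550, 4320 and 4433 and the mdx arrays 1648, 778 and 628. No mdx array came near a control array, and the highest mdx value was that of replicate 1. The group means were 4767 ± 680 and 1018 ± 550 (SD, n = 3 each), 4.68-fold lower in mdx, and the log2 difference was -2.31 ± 0.299 (SE, adjusted p = 1.75e-06). The call was kept without each array and in every alternative tried, although leaving out the arrays of high albumin (-2.41, adjusted p = 5.66e-04) compares 1 control array with 2 mdx arrays at this age. Skeletal muscle markers at that age summed to 291927 to 510760 in controls (median 506998), against 378302 to 392363 in mdx (median 379733). The mdx sums lay inside the control range but the mdx median was lower. Log2 differences of the 15 markers ran from -0.92 to 0.79, and 0 were called by limma. The part of these markers in the Clcn1 difference was not tested.

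At younger ages Clcn1 showed no such gap. The controls read 1650, 2568 and 1552 at 7 days, where the mdx arrays read 3247, 1204 and 1385. At 56 days the values were 4063, 3948 and 4487 against 2246, 4007 and 3255. The groups overlapped at 7, 14, 23 and 56 days. At 28 days they did not, with controls at 2809, 2878 and 2569 and mdx at 2553, 2058 and 1635, but the log2 difference of -0.42 ± 0.299 (SE) had an adjusted p of 0.655. The dependence of the difference on age passed the F test (adjusted p = 0.00218), but not without the arrays of high albumin (adjusted p = 0.0761). Between 7 and 112 days Clcn1 rose in controls by a log2 of 1.32 ± 0.299 (SE, adjusted p = 8.11e-04). In mdx it fell by 0.89 (log2, SE 0.299, adjusted p = 0.0367). The mdx fall lost its call without mdx replicate 1 at 7 days (-0.46, adjusted p = 0.263), without mdx replicate 2 at 112 days (-0.77, adjusted p = 0.137) and without mdx replicate 3 at 112 days (-0.62, adjusted p = 0.24). The rise in controls was not called with the Gapdh ratio as a covariate (0.97, adjusted p = 0.0726).

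**Figure D3:**
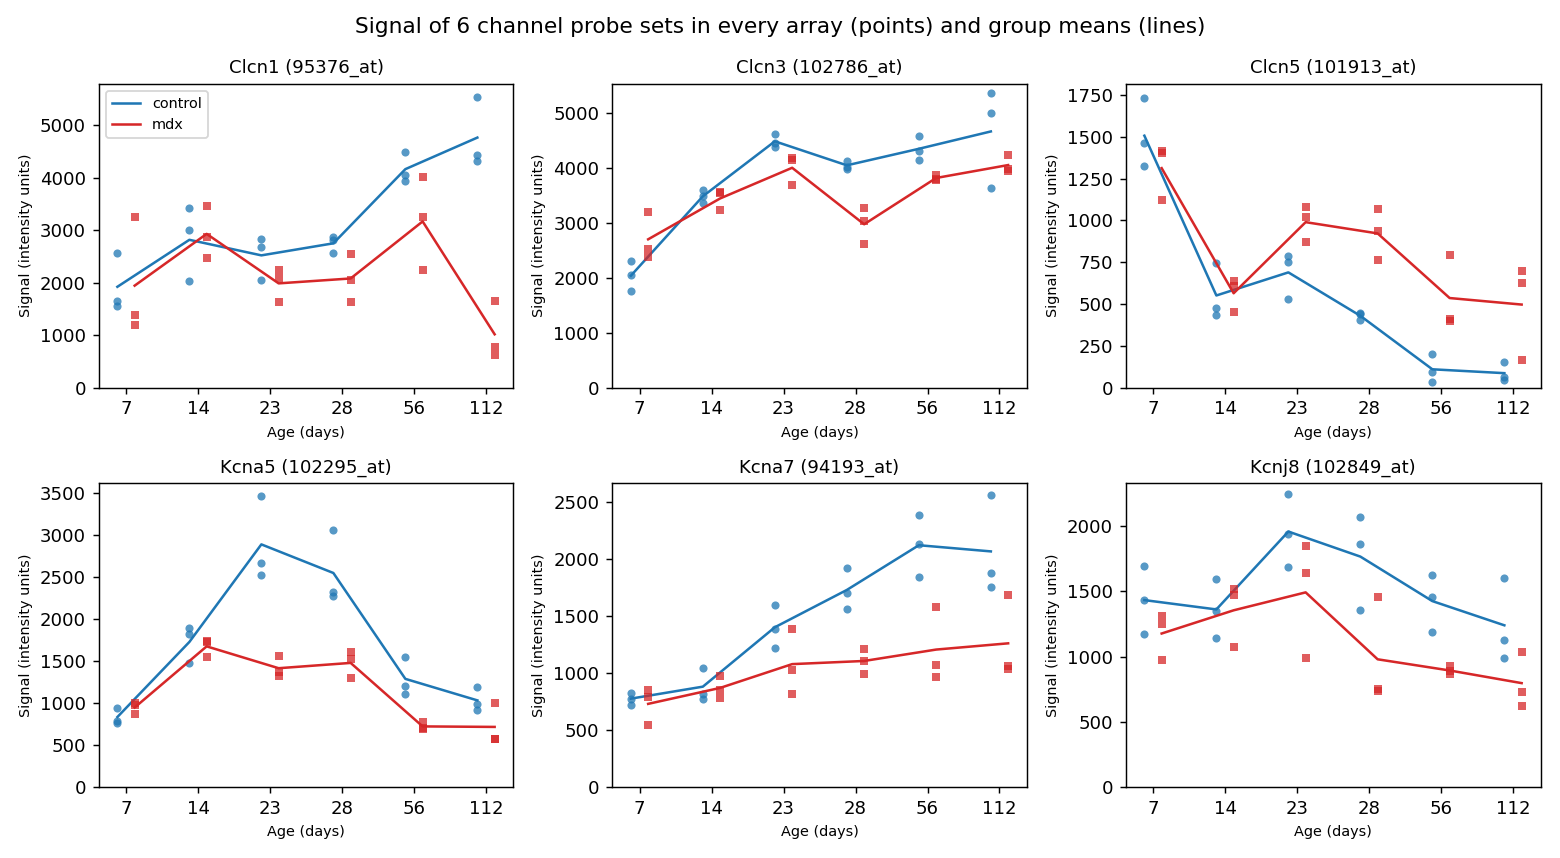
Signal in intensity units against age in days for Clcn1, Clcn3 102786_at, Clcn5 101913_at, Kcna5, Kcna7 and Kcnj8, with points for arrays and lines for the means of control and mdx groups of 3 arrays. Clcn1 parts at 112 days, with controls at 4320 to 5550 and mdx at 628 to 1648, and Kcna5 parts at 23, 28 and 56 days.

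Clcn3 and Clcn5 encode exchangers of endosomal membranes. Clcn5 was read by 101913_at at 1733, 1461 and 1326 in controls, against 1122, 1413 and 1403 in mdx at 7 days. At 56 days the controls read 94.2, 200 and 35.6 and the mdx arrays 401, 795 and 412. At 112 days they read 62.3, 46.4 and 152 against 623, 700 and 168. The groups overlapped at 7 and 14 days. At 23 days they did not, with 529, 785 and 754 in controls, against 1079, 1018 and 872 in mdx. At 28 days the values were 446, 440 and 403 against 763, 936 and 1068, again without overlap. Neither of these ages was called. At 56 and 112 days every mdx array also lay above every control array, although control values there were below the 40th percentile. The log2 difference was 2.11 ± 0.395 at 56 days (SE, adjusted p = 3.53e-04) and 2.05 ± 0.395 at 112 days (SE, adjusted p = 4.96e-04). Over the 6 ages it was 0.93 ± 0.161 (SE, adjusted p = 7.41e-05), and it depended on age (adjusted p = 0.0111), but not after quantile normalization (0.121), without the arrays of high albumin (0.0866) or without the 14-day and 23-day arrays (0.0657). The 112-day call was lost with the 6 arrays of that age fitted alone (2.05, adjusted p = 0.12). Between 7 and 112 days this probe set fell by 3.79 in controls (log2, SE 0.395, adjusted p = 8.61e-09) and fell by 1.55 in mdx (SE 0.395, adjusted p = 0.00546). The mdx fall was lost without mdx replicate 3 at 112 days (-0.95, adjusted p = 0.0961).

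The other Clcn5 probe set, 161451_r_at, did not show this pattern. It read 886, 580 and 402 in controls, against 381, 510 and 749 in mdx at 112 days, and its log2 difference over the ages was 0.15 ± 0.16 (SE, adjusted p = 0.571). In controls it rose between 7 and 112 days by a log2 of 1.28 ± 0.392 (SE, adjusted p = 0.01), opposite to 101913_at. That rise was lost without control replicate 1 at 112 days (1.00, adjusted p = 0.071). The probe sets of Clcn5 therefore disagree, and what each reads of the gene's transcripts was not tested.

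Clcn3 was read by 4 tested probe sets, and all had a log2 difference below 0 over the mean of the ages. It was -0.40 ± 0.113 for 94463_at (SE, adjusted p = 0.0107) and -0.41 ± 0.0916 for 94464_at (SE, adjusted p = 0.00158). The other two were not called, at -0.10 for 102786_at (adjusted p = 0.189) and -0.29 for 94465_g_at (adjusted p = 0.061). At 56 days 94464_at read 1290, 1045 and 1286 in controls, against 689, 483 and 631 in mdx, without overlap, a log2 difference of -0.98 ± 0.224 (SE, adjusted p = 0.00287) that was kept without each array. At 28 days 102786_at read 4126, 3983 and 4020 in controls, against 2609, 3030 and 3275 in mdx, a log2 difference of -0.45 (SE 0.124, adjusted p = 0.041). Without any 1 of the control arrays or of mdx replicates 1 and 2 that fall was no longer called (adjusted p = 0.14, 0.0948, 0.111, 0.223 and 0.0848 in that order). Its difference depended on age (adjusted p = 0.027), but not without control replicate 2 (0.0531) or 3 (0.102) at 7 days, mdx replicate 1 at 7 days (0.0828) or mdx replicate 1 at 28 days (0.0518).

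At 23 days Clcn3 94463_at read 853, 960 and 769 in controls, against 225, 425 and 759 in mdx. The mdx arrays spread widely, and replicate 3 lay just under the lowest control. The log2 difference of -0.97 ± 0.277 (SE, adjusted p = 0.0434) lost its call without control replicates 1, 2 or 3 (adjusted p = 0.124, 0.168 and 0.0801) and without mdx replicates 1 (-0.57, adjusted p = 0.531) or 2 (-0.98, adjusted p = 0.105). Clcn4 and Clcn7, further intracellular exchangers of which Clcn7 serves the lysosome, and Clcn2, a widely expressed surface channel, were not called in any comparison of the genotypes. Over the ages Clcn4 104704_at differed by 0.13 (adjusted p = 0.187) and Clcn7 104391_s_at by 0.01 (adjusted p = 0.948), on mean signals of 1627 and 1895.

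Among voltage-gated potassium channels, Kcna5 and Kcna7 were lower in mdx. Kcna5 encodes a delayed rectifier that is also known from vascular smooth muscle and heart. Of its 2 probe sets 102295_at was tested, and 161775_f_at, which read at most 297 on any array, was not. At 23 days the former read 2529, 3469 and 2668 in controls, against 1559, 1321 and 1371 in mdx. At 28 days the values were 2270, 2320 and 3056 against 1300, 1613 and 1527, and at 56 days 1110, 1205 and 1556 against 703, 774 and 699. The groups did not overlap at these 3 ages. They overlapped at 112 days, with 1198, 916 and 990 in controls, against 1001, 576 and 581 in mdx. Log2 differences were -1.00, -0.76, -0.79 and -0.54 from 23 to 112 days (SE 0.18 each, adjusted p = 6.77e-04, 0.0109, 0.00264 and 0.0437). At 7 and 14 days they were 0.18 and -0.04 and were not called (adjusted p = 0.756 and 1).

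Over the mean of the ages Kcna5 was lower in mdx by a log2 of -0.49 ± 0.0733 (SE, adjusted p = 7.95e-06), the lowest adjusted p of the 42 channel probe sets in that comparison. Its difference depended on age (adjusted p = 0.0077), but not without the arrays of high albumin (0.117) or without the 14-day and 23-day arrays (0.0859). The 23-day and 56-day calls were kept without each array. Leaving out control replicate 3 (-0.63, adjusted p = 0.111) or mdx replicate 1 (-0.67, adjusted p = 0.0706) ended the 28-day call. That at 112 days ended when control replicate 1 (-0.44, adjusted p = 0.178) or 3 (-0.57, adjusted p = 0.0632) was left out, or mdx replicate 2 (-0.41, adjusted p = 0.207) or 3 (-0.42, adjusted p = 0.201). Smooth muscle markers (6 genes) at 23 days summed to 18159 to 19576 in controls, against 17516 to 19446 in mdx, and these ranges overlap. The 5 tested markers had log2 differences of both signs there, from -0.73 to 0.47. By limma 0 were called and 2 had an unadjusted p under 0.05. The part of these markers in the Kcna5 difference was not tested.

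Kcna7 encodes a related channel known from skeletal muscle and heart. At 56 days it read 1848, 2394 and 2132 in controls, against 1583, 1073 and 972 in mdx, without overlap. At 112 days it read 2566, 1884 and 1761 against 1037, 1063 and 1692, again without overlap, mdx replicate 3 lying closest to the controls. At 28 days the arrays did not overlap either, with 1566, 1925 and 1706 against 1113, 1216 and 999, but the difference was not called (-0.63, adjusted p = 0.119). At 56 and 112 days the log2 differences were -0.82 and -0.72 (SE 0.212 each, adjusted p = 0.00727 and 0.0225), and over the ages -0.45 ± 0.0867 (SE, adjusted p = 3.21e-04). At 112 days the call needed control replicate 1 (without it -0.55, adjusted p = 0.137) and mdx replicate 1 (-0.59, adjusted p = 0.0982) and 2 (-0.61, adjusted p = 0.108). In controls Kcna7 rose from 7 to 112 days by a log2 of 1.36 ± 0.212 (SE, adjusted p = 8.81e-06), and in mdx by 0.75 ± 0.212 (SE, adjusted p = 0.0127). The mdx rise was lost without mdx replicate 1 at 7 days (0.56, adjusted p = 0.073) or mdx replicate 3 at 112 days (0.52, adjusted p = 0.129). The dependence of the genotype difference on age did not pass the F test (adjusted p = 0.218).

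Of the accessory Kcnab subunits, which bind voltage-gated channels inside the cell, Kcnab3 and 1 of 2 tested Kcnab2 probe sets were called higher, on dim signals. Both passed the limit for testing through mdx arrays alone (8 arrays for Kcnab3 and 4 for Kcnab2 102892_at, 0 of them controls), so their entry into the test was tied to the group in which they are higher. The Kcnab1 probe sets were not tested, and 102725_at read 136, 163 and 159 in controls, against 49.4, 37.4 and 42.3 in mdx at 56 days. At 112 days it overlapped, with 160, 102 and 105 against 73.8, 92 and 320. The other Kcnab1 probe set, 162087_f_at, overlapped at 56 days, with 54, 64.4 and 61.4 in controls, against 71.9, 74.8 and 49.8 in mdx. At 56 days Kcnab3 read 76.9, 156 and 106 in controls, against 370, 438 and 473 in mdx, without overlap, and the log2 difference was 1.69 ± 0.443 (SE, adjusted p = 0.00791). Over the ages Kcnab3 was higher by 0.58 ± 0.181 (SE, adjusted p = 0.0228), which fell to 0.31 (adjusted p = 0.32) without the arrays of high albumin. Kcnab2 102892_at was higher by 0.54 ± 0.153 (SE, adjusted p = 0.0123) over the ages. It was also not called without the arrays of high albumin (0.52, adjusted p = 0.122) or after quantile normalization (0.42, adjusted p = 0.073). Its signals ran from 143, 119 and 111 in controls, against 468, 292 and 160 in mdx at 23 days to 125, 209 and 220, against 394, 311 and 239, at 112 days. The groups did not overlap at either age, and most of its values were below the 40th percentile. Another Kcnab2 probe set differed by 0.29 (adjusted p = 0.45).

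Kcnh2 encodes the channel of a repolarising current of the heart. At 56 days it read 651, 845 and 661 in controls, against 1227, 1129 and 1192 in mdx, without overlap, and the log2 difference was 0.70 ± 0.243 (SE, adjusted p = 0.045). The call was lost without any 1 of the 6 arrays, with adjusted p of 0.14, 0.0502 and 0.102 without control replicates 1, 2 and 3 and 0.117, 0.0746 and 0.0866 without mdx replicates 1, 2 and 3. After median centring the difference was 0.45 (adjusted p = 0.191). The groups overlapped at 14, 28 and 112 days. At 7 days the mdx arrays were above the controls, with 1509, 1084 and 1200 against 1069, 1004 and 855, and were not called (0.36, adjusted p = 0.615). At 23 days the arrays again did not overlap, with 686, 576 and 553 in controls, against 470, 524 and 445 in mdx, the mdx arrays being the lower ones there.

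Among inward rectifiers, Kcnj8 was lower in mdx. It encodes a pore subunit of potassium channels that close on ATP, known from vascular smooth muscle. Kcnj11 encodes the pore subunit of the skeletal muscle form, and Abcc9 a regulatory subunit that binds either pore. At 28 days Kcnj8 read 2070, 1863 and 1358 in controls, against 751, 1452 and 734 in mdx, and mdx replicate 2 lay inside the control range. The log2 difference was -0.88 ± 0.25 (SE, adjusted p = 0.0476). At 56 days it read 1624, 1456 and 1191 against 864, 926 and 891, without overlap but not called (-0.64, adjusted p = 0.0724). Over the ages it was lower by a log2 of -0.47 ± 0.102 (SE, adjusted p = 9.85e-04), a call kept without each array.

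The 28-day call of Kcnj8 ended when control replicate 1 (-0.75, adjusted p = 0.232) or 2 (-0.83, adjusted p = 0.152) was left out, or mdx replicate 1 (-0.73, adjusted p = 0.218) or 3 (-0.71, adjusted p = 0.301). After quantile normalization its adjusted p was 0.0704 and after median centring 0.0794. Abcc9 was lower over the ages by -0.52 ± 0.113 (SE, adjusted p = 9.87e-04). Kcnj11 was not called. It read 1493, 1818 and 818 in controls, against 438, 1060 and 1177 in mdx at 112 days, with overlap, and over the ages differed by -0.33 ± 0.167 (SE, adjusted p = 0.193). Endothelial markers (7 genes) summed at 28 days to 15728 to 18361 in controls, against 12206 to 13648 in mdx, without overlap, while 0 of the 7 were called by limma at that age (3 with an unadjusted p under 0.05) and their log2 differences ran from -0.60 to 0.45. Averaged over the ages, 4 of the 7 endothelial markers fell and 0 rose, with log2 differences from -0.32 to 0.05. At 112 days 4 fell and 0 rose as well. Smooth muscle markers at 28 days summed to 14684 to 18246 in controls, against 17134 to 18172 in mdx and overlapped, but the differences of their members had both signs. Acta2 rose (1.02, adjusted p = 0.00327), and Myh11 differed by -0.87 (adjusted p = 0.101). Averaged over the ages, 1 of the 5 tested smooth muscle markers rose and 2 fell. The part of these markers in the Kcnj8 difference was not tested.

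The remaining inward rectifiers were not called between genotypes. Kcnj2, a main inward rectifier of muscle fibres, was not tested, since its probe set read at most 355 on any array. Kcnj12, a relative of Kcnj2, differed over the ages by -0.20 ± 0.112 (SE, adjusted p = 0.232). Kcnj4 and Kcnj1 differed by -0.02 and -0.04 (adjusted p = 0.917 and 0.9).

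Of the calcium-activated potassium channels, Kcnn1 and Kcnn4 were called in different comparisons. Kcnn1 encodes a small-conductance channel. At 112 days it read 1834, 1494 and 1937 in controls, against 590, 699 and 461 in mdx, without overlap, for means of 1755 ± 232 and 583 ± 119 (SD, n = 3 each). The log2 difference was -1.55 ± 0.476 (SE, adjusted p = 0.0285), and the call ended when control replicate 1 (-1.51, adjusted p = 0.0727) or 3 (-1.47, adjusted p = 0.0708) was left out, or mdx replicate 1 (-1.57, adjusted p = 0.0546) or 3 (-1.40, adjusted p = 0.104). At 7 days it read 151, 371 and 234 in controls, against 371, 1212 and 207 in mdx, so 1 mdx array stood far above the others. It rose in controls between 7 and 112 days by a log2 of 2.72 ± 0.476 (SE, adjusted p = 4.16e-05). In mdx the difference was 0.30 ± 0.476 (SE, adjusted p = 0.727). The genotype difference did not pass the F test of its dependence on age (adjusted p = 0.127).

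Kcnn4 encodes the intermediate-conductance channel, known from white and red blood cells and from fibroblasts. Over the ages it was higher in mdx by a log2 of 0.34 ± 0.111 (SE, adjusted p = 0.03). At 23 days it read 322, 352 and 296 in controls, against 767, 413 and 560 in mdx, without overlap, and at 112 days 803, 794 and 532 against 842, 1162 and 1029, also without overlap. At 14 days the controls were the higher group, with 1198, 1133 and 1281 against 1044, 1115 and 1073. No single age was called. The mean lost its call after quantile normalization (0.27, adjusted p = 0.0688), median centring (0.26, adjusted p = 0.0629) and array weights (0.28, adjusted p = 0.0504). The call was also lost with the replicate block (0.34, adjusted p = 0.0813) and without the arrays of high albumin (0.23). It was also lost without 1 array in 8 cases, with adjusted p between 0.0502 and 0.058. These were mdx replicate 1 at 7 days and at 23 days, control replicate 2 and mdx replicate 3 at 28 days, control replicates 1 and 2 at 56 days, and control replicate 3 and mdx replicate 2 at 112 days. Macrophage markers at 23 days summed to 15287 to 18492 in controls, against 44898 to 78573 in mdx, and their part in the Kcnn4 difference was not tested.

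Kcnma1, the large-conductance channel opened by both calcium and voltage, was not called between genotypes at any age. It read 1718, 1303 and 887 in controls, against 1484, 1235 and 1226 in mdx at 112 days, and over the ages differed by -0.05 ± 0.0788 (SE, adjusted p = 0.728). Its accessory subunit Kcnmb1 read at most 144 on any array and was not tested. The tested 2-pore channels Kcnk1, Kcnk2, Kcnk4 and Kcnk7 were not called either, with differences of -0.08, -0.02, -0.08 and 0.12 over the ages (adjusted p = 0.835, 0.948, 0.644 and 0.659).

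The sodium channels stayed below the level of a test. Their 8 probe sets, for 6 genes, had mean signals from 15.3 to 216, and the highest value on any array was 466, for Scn8a. Scn7a, a sodium channel relative known from glia and muscle, read at most 248. Scn4a, the main sodium channel of adult muscle, and Kcnn3 had no probe set under their symbols in the annotation, so they could not be analysed.

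**Figure D4:**
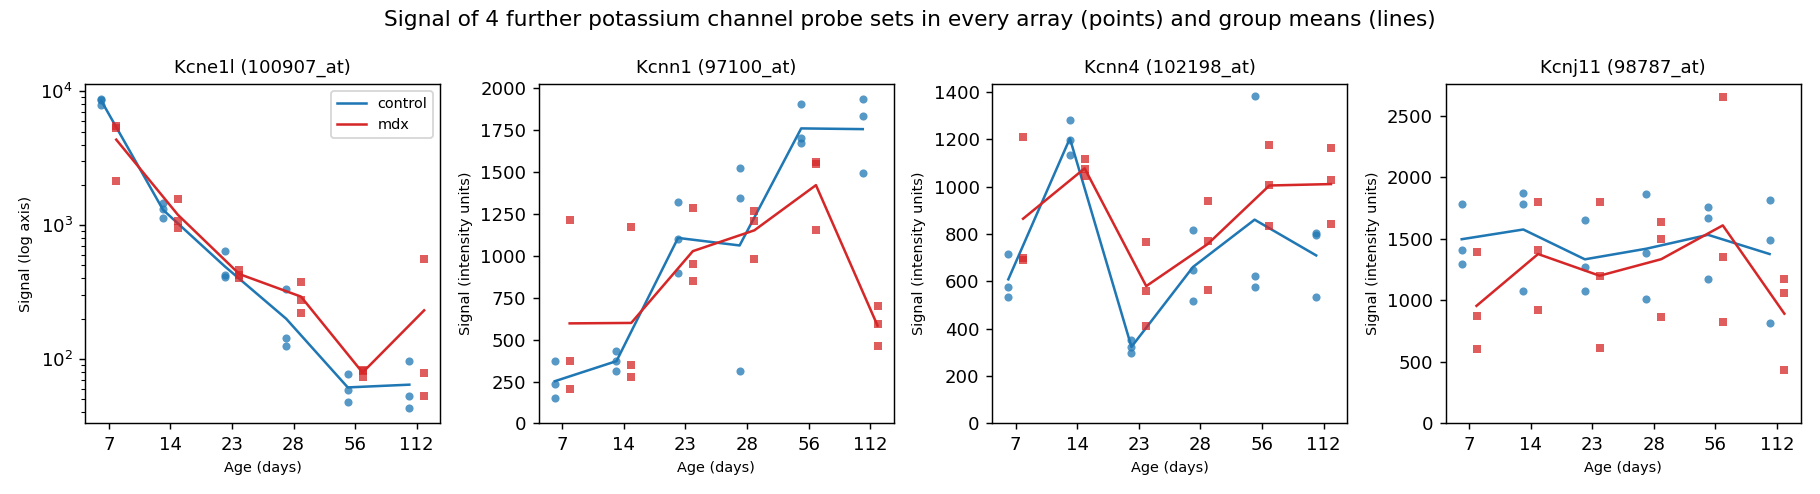
Signal against age in days for Kcne1l (log axis), Kcnn1, Kcnn4 and Kcnj11, with points for arrays and lines for group means of 3 arrays. Kcne1l falls from 7938 to 8750 in controls at 7 days to 43 to 96.4 at 112 days, and Kcnn1 rises in controls to 1494 to 1937.

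Change with age was tested as 112 minus 7 days in each genotype. In controls 10 of the 42 channel probe sets rose and 2 fell (28.6%, against 21.4% and 20.3% of all probe sets, 41.7% together), and in mdx 2 rose and 3 fell (11.9%, against 8.18% and 9.18% of all, 17.4% together). Median centring left 8 rises and 3 falls in controls and moved the share of rises among all calls from 51.3% to 40.6%. The median log2 change of the 42 was 0.43 in controls and 0.16 in mdx, beside 0.10 and 0.04 over all tested. Besides Kcnn1, Kcna7, Clcn1 and Clcn5 161451_r_at, the larger rises in controls were those of Kcnq1 161796_r_at (1.30 ± 0.285, SE, adjusted p = 6.15e-04) and Clcn3 102786_at (1.17 ± 0.124, SE, adjusted p = 1.19e-08). Kcnq1 encodes a slow delayed rectifier and had another probe set that was too dim to test. Clcn3 102786_at rose in mdx as well, by 0.59 ± 0.124 (SE, adjusted p = 8.44e-04). The other 4 rises in controls were those of Kcnk4 (1.14), Kcns2 (0.94), Clcn3 94463_at (0.75) and Kcnj4 (0.70).

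The smaller of these rises depended on single arrays. Kcns2 was lost without control replicates 1 or 3 at 7 days (adjusted p = 0.123 and 0.0817) or control replicates 1 or 2 at 112 days (0.109 and 0.0574). Kcnj4 was lost without control replicate 1 at 7 days (0.138) or control replicates 1 or 2 at 112 days (0.0712 and 0.15). Clcn3 94463_at was lost without control replicates 1, 2 or 3 at 7 days (0.075, 0.0527 and 0.0652) or control replicates 1 or 3 at 112 days (0.0677 and 0.0893). The Gapdh ratio differed with age in controls, from 0.0357 to 0.147 at 7 days to 0.518 to 0.93 at 112 days, and overlapped in mdx, with 0.32 to 0.83 and 0.532 to 0.665. With it as a covariate, 4 rises were no longer called. That of Clcn1 was 0.97 (adjusted p = 0.0726, 1.32 without the covariate). The others were no smaller than without it, at 0.99 for Clcn3 94463_at (adjusted p = 0.052), 1.31 for Clcn5 161451_r_at (adjusted p = 0.0731) and 0.78 for Kcnj4 (adjusted p = 0.107).

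Kcne1l, now named Kcne5, encodes a small accessory subunit of voltage-gated channels and was bright in the youngest diaphragms. The control arrays read 7938, 8680 and 8750 at 7 days, 1309, 1131 and 1463 at 14 days and 427, 643 and 409 at 23 days. They read 124, 331 and 144 at 28 days and 53.3, 96.4 and 43 at 112 days. Each age up to 28 days was thus lower than the one before it, without overlap, and from 56 days every control array was below 100 intensity units. The log2 change from 7 to 112 days was -6.50 ± 0.447 in controls (SE, adjusted p = 1.48e-12), the lowest of all 9291 tested probe sets. In mdx it was -4.51 ± 0.447 (SE, adjusted p = 8.25e-09), again the lowest of all.

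The mdx arrays of Kcne1l read 2152, 5540 and 5365 at 7 days, all below the controls, but the log2 difference of -1.07 ± 0.447 (SE) was not called (adjusted p = 0.375). At 112 days mdx replicate 3 read 560, against 53.2 and 79 for the other mdx arrays. The sum of Schwann cell markers (5 genes) moved in the same direction. It was 23142 to 27375 in controls, against 13111 to 16936 in mdx at 7 days, and 4916 to 5152 in controls at 112 days. Of 4 tested, 2 fell in mdx at 7 days (range -1.18 to 0.07). With age in controls 2 of the 4 fell (range -2.63 to 0.25), as did 4 of 5 smooth muscle and 4 of 7 fibroblast markers, beside 20.3% of all probe sets. The part of these markers in the Kcne1l values was not tested.

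For Clcn1, Kcna7, Kcna5, Kcnj8, Clcn5 and Kcne1l, chosen after their values were seen, the sequence before the gene start shows which muscle motifs lie there. The 150 bases before the start are printed 5′ to 3′ on the gene's strand, from RefSeq on build GRCm38.p6. Capitals mark the E-box CANNTG, the site form of myogenic regulators such as MyoD, and the MEF2 consensus, both of which read the same on the other strand. Clcn5 has 2 listed starts.
Clcn1, chr6:42286535-42286684, + strand: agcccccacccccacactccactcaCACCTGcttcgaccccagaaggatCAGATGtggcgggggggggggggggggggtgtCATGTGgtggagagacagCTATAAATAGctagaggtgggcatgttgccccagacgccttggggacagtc
Kcna7, chr7:45405810-45405959, + strand: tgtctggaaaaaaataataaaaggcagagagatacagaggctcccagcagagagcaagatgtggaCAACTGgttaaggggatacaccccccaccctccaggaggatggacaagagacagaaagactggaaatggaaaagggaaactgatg
Kcna5, chr6:126535556-126535705, - strand: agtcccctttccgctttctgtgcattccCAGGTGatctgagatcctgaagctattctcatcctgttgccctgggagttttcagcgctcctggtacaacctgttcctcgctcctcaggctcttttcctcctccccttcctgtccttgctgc
Kcnj8, chr6:142571615-142571764, - strand: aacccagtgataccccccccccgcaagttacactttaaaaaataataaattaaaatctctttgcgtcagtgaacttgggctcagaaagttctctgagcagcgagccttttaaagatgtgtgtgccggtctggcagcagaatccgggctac
Clcn5, chrX:7319359-7319508, - strand: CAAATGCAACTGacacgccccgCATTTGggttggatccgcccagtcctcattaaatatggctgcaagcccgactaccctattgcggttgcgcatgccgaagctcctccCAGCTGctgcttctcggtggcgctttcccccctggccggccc
Clcn5, chrX:7188715-7188864, - strand: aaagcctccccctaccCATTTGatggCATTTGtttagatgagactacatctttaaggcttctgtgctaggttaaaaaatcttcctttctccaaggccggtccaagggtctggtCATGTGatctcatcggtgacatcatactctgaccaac
Kcne1l, chrX:142306199-142306348, - strand: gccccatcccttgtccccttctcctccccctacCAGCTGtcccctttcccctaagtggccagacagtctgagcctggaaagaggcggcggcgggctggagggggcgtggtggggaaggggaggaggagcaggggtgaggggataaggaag

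The Clcn1 window holds 3 E-boxes and 1 MEF2 match, 51 bases before the start, and none of these overlap. Kcna7, Kcna5 and Kcne1l hold 1 E-box each and Kcnj8 none. The starts of Clcn5 hold 4 and 3, and its first 2 E-boxes are adjacent without overlap. An E-box lies in 47.7% of the 32851 promoters of the table and in 19 of the 39 promoters (48.7%) of the 28 tested channel genes found there. The MEF2 consensus lies in 0.332% of all promoters and in 2 of those 39, Clcn1 and Kcnj9. These matches are descriptions of letters and show neither binding nor an effect.

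Genes that work with these channels were described from lists of related genes, beside 10.4% rises and 7.41% falls and a median log2 difference of 0.03 among all tested probe sets over the ages. Of the sodium and potassium pump and its regulators 5 were measured (median 0.00), and over the ages Atp1b3, a beta subunit (0.21, adjusted p = 7.42e-04), and Fxyd5, a modulator (0.74, adjusted p = 1.73e-05), rose while Fxyd1, the muscle modulator phospholemman, fell by 0.24 (adjusted p = 0.0207). Of the muscle calcium channel and release genes 5 were measured (median 0.03). Cacng1, its gamma subunit, rose (0.39, adjusted p = 3.6e-04), Cacna1s, its pore, fell by 0.27 (adjusted p = 2.63e-04), and Ryr1, the release channel, differed by -0.16 (adjusted p = 0.161).

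Of 14 measured channel partners and anchors 1 rose and 3 fell over the ages (median -0.07). Cav3, muscle caveolin, rose (0.44, adjusted p = 1.04e-07), and Abcc9, Nedd4l, a ubiquitin ligase (-0.21, adjusted p = 0.0352), and Dlg1, a scaffold (-0.19, adjusted p = 0.0187), fell. Of 10 other chloride and cation channels (median 0.06) Trpv2 (0.72, adjusted p = 0.00157) and P2rx4, a receptor opened by ATP (0.89, adjusted p = 0.00137), rose and Lrrc8a, of the volume-regulated anion channel, fell by 0.15 (adjusted p = 0.0432).

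Of the genes of the junction, of denervation and of immature fibres, 12 of 13 measured rose in mdx over the ages and 10 of 13 at 112 days, where 7.65% of all probe sets rose, and 0 fell. Chrng, the acetylcholine receptor subunit of immature fibres, rose by a log2 of 2.79 ± 0.415 at 112 days (SE, adjusted p = 1.53e-05), while Chrne, the adult subunit, differed by -0.89 ± 0.444 (SE, adjusted p = 0.207). These genes were listed with earlier results of these data known, so their number of rises is no independent result. The median log2 difference of the 13, on the brightest probe set of each gene, was 1.75 at 112 days. It was -0.17 for the 42 channel probe sets and 0.02 for all tested.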

How the data were processed

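The deposited values are intensities of probe sets on a linear scale, 1 column per array, already scaled by the authors: the trimmed mean of every column lies between 1499.2 and 1499.7, and no detection calls were used. The sources used here do not name the software that made them. All 36 columns matched a sample by title. Of 12488 probe sets, 66 array controls were left out. Genes come from the platform annotation, with 1 symbol for 10833 probe sets, several for 396 and none for 1193. All 54 channel symbols were found in the RefSeq table of GRCm38.p6.

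Values were tested as log2(value + 32) with limma 3.58.1 in R 4.3.3, with 12 group means over 36 arrays, a variance trend (eBayes), 24 residual degrees of freedom, and Benjamini-Hochberg adjustment over the 9291 probe sets above percentile 40 (signal 374) on at least 3 arrays. The fit was tested on simulated data. No normalization was added. Precision is limited by 3 arrays per group. The members and the gene lists were chosen with earlier results of these data known. Members called between genotypes and a list of muscle membrane channels were named, and for change with age the largest. For a listed gene the brightest probe set was used.

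Alternatives were pseudocounts of 16 and 64, no filter or percentile 60, quantile normalization, median centring, weighted arrays, a block for the replicate number, the 6 arrays alone, no arrays with albumin above 10000, the Gapdh ratio as a covariate, each array left out and, added after seeing the data, no 14-day and 23-day arrays.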

Additional observations from a re-analysis of the deposited data

Results flagged for a closer look

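For 4 channel probe sets the difference between mdx and control was not the same at the 6 ages, by the F test in limma with Benjamini-Hochberg adjustment over all 9291 probe sets. These were Clcn1 95376_at (adjusted p = 0.00218), Kcna5 102295_at (0.0077), Clcn5 101913_at (0.0111) and Clcn3 102786_at (0.027). The Clcn1 difference lay between -0.43 and 0.08 up to 56 days and at -2.31 at 112 days. The Kcna5 difference was 0.18 and -0.04 at 7 and 14 days and -1.00 at 23 days. The Clcn5 difference went from -0.19 at 7 days to 2.11 at 56 days, and that of Clcn3 from 0.40 at 7 days to -0.45 at 28 days.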

How the results depend on the processing

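Called results of single channel probe sets numbered 47. Over 512 refits with another setting, 421 kept the call, 91 lost it and 0 reversed. Over 702 refits without 1 array, 638 kept it, 64 lost it and 0 reversed. Among the 512 are the replicate block fits of change with age, which compare a reference replicate of each age and not group means. The calls at 7 and 14 days stayed at 0 under all settings run. At 23 days the count of 2 became 1 without a filter, after quantile normalization, without arrays of high albumin, with the Gapdh ratio as a covariate, with the replicate block and with the 6 arrays alone, and 6 with array weights. At 28 days the count of 3 became 1 without a filter, after quantile normalization and with the Gapdh ratio. At 112 days the count of 5 became 3 with array weights, 3 with the replicate block, 1 without arrays of high albumin and 2 with the 6 arrays alone. For dependence on age the count of 4 became 7 with array weights, 2 with the replicate block, 0 without arrays of high albumin and 1 without the 14-day and 23-day arrays, a setting chosen after seeing the data. For change with age, the mdx count of 5 became 1 with the 6 arrays alone. The cause of these moves was not tested. Leaving out arrays of high albumin leaves 1 control array at 14 and at 112 days.

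Replicate numbers did not pair arrays: of 18 same-numbered pairs 1 had a correlation of deviations over 0.1 (range -0.23 to 0.15), and 4 of 36 arrays correlated best with their own number. With the replicate number as a block the change with age had 7 calls in controls (12 without it) and 2 in mdx (5 without it). In that fit the change is taken at a reference replicate of each age and not between group means. The estimates themselves then move, so these 7 and 2 calls do not show how the change with age depends on pairing.

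Leaving out each array in turn gave 1 to 3 calls at 23 days, 0 to 2 at 28, 5 to 9 at 56 and 2 to 6 at 112 days, 9 to 12 for the mean, 3 to 5 for dependence on age, and 8 to 14 in controls and 2 to 8 in mdx for change with age. Low signal limits the sodium channels, none of which was tested.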
